A study of Mus musculus with 20 samples.

Results

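The 10 genes described here encode amino acid transporters of the plasma membrane, or a subunit of them: Slc7a1, Slc7a3, Slc3a2, Slc7a5, Slc7a11, Slc6a9, Slc38a1, Slc38a2, Slc1a4 and Slc1a5. They were taken by name, out of 24421 genes in the count files, with earlier results of these data known. Their counts, set beside shares of all genes, are therefore a description and no independent evidence. RNA was sequenced from motor neurons differentiated in culture out of mouse embryonic stem cells, treated at day 2 of culture with 20 µM cyclopiazonic acid (CPA), a blocker of the calcium pump of the endoplasmic reticulum (ER), or left untreated. There were 20 libraries in 10 groups of 2. NIP cells, labelled cranial motor neurons, were collected after 12 h with CPA, 12 h without it, 36 h with CPA, 36 h without it, and at 0 h untreated. NIL cells, labelled spinal motor neurons, were collected in the same 5 conditions. The labels name no promoter or clone for either line and do not say whether the libraries of a group came from separate cultures, so p-values measure the spread between these samples, which may be technical. Titles and the extraction protocol put the later collections at 12 h and 36 h, while the treatment protocol says 6 h and 12 h; the titles were followed.

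Cells take up amino acids through carriers that differ in what they move: cationic amino acids such as arginine and lysine, large neutral ones such as leucine, cystine in exchange for glutamate, glycine, or small neutral ones such as alanine, serine and glutamine. When unfolded proteins build up in the ER, the kinase PERK phosphorylates the initiation factor eIF2α, which lowers protein synthesis in general and favours translation of the transcription factor ATF4. ATF4 pairs with C/EBP factors at composite DNA elements and is known to raise genes for amino acid import, amino acid synthesis and tRNA charging. Glutathione, made from cysteine, glutamate and glycine, is also fed by several of these carriers, and in neurons glycine and glutamate serve as transmitters as well.

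Reads assigned to genes ranged from 7996454 to 30321152 per library, with a median of 22570434 in the libraries numbered replicate 1 and 13149931.5 in those numbered replicate 2. Rn45s, the ribosomal RNA precursor, took 5.18% to 38.6% of gene reads, with the high values in untreated NIP replicate 1 at 36 h and CPA-treated NIL replicate 2 at 36 h. Levels below are read counts scaled to the library's effective total (CPM) on library sizes scaled by edgeR's TMM factors, and all 10 genes were among the 14792 tested. Differences are log2 differences ± their standard error (SE) with 2 libraries a group, and a gene was called when its edgeR quasi-likelihood p, adjusted by Benjamini and Hochberg over all genes tested, was under 0.05. This main fit did not pair libraries by replicate number, so differences between the same-numbered sets count as spread in it. Values marked as from the replicate block come from a fit that did pair them. The lines matched their labels. Lhx3, a spinal motor neuron factor, was at 0 to 0.326 CPM in NIP libraries and 115 to 166 CPM in NIL libraries, Phox2a, a cranial motor neuron factor, was at 56.9 to 322 CPM in NIP libraries and 0.0839 to 3.31 CPM in NIL libraries, and Isl1 was present in all. Hspa5, the ER chaperone BiP, was higher with CPA by 3.23 ± 0.29 in NIP and 3.18 ± 0.29 in NIL at 12 h. In bulk RNA such as this, fewer cells of a type and less RNA per cell cannot be told apart.

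Of the 10 genes, 6 had at least 1 promoter in the RefSeq promoter table (GRCm38.p6), 9 promoters in all: Slc7a1, Slc7a11, Slc3a2, Slc6a9, Slc38a2 and Slc1a4. The 250 bases before each start were searched on both strands for the composite ATF4 and C/EBP element, TGATGNAA, which 1134 of 32851 promoters of that length held (3.45%). Slc7a3, Slc7a5, Slc38a1 and Slc1a5 had no entry and were not searched, nor were bases after a start. Slc7a11 was the only 1 of the 6 with a match. It held 2 matches of opposite orientation, which start 66 and 47 bases before the RefSeq start, and the stretch is shown here because it carries both in a short run. It lies at chr3:50443628-50443704 on the minus strand, with the 2 matches in capitals.
Slc7a11 promoter: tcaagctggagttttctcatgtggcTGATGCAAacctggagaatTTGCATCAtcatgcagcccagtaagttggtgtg
The cAMP-response palindrome TGACGTCA, held by 508 promoters (1.55%), was in none of the 9. A match of letters is a description and not a measured binding site, and these libraries hold no binding data.

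Most of the 10 transporter genes rose with CPA in both lines at 12 h and in NIP at 36 h, fewer passed the test in NIL at 36 h, and none fell, where 1.74% of all genes fell in NIP and 0.656% in NIL at 12 h, and 0.994% in NIP and 0.534% in NIL at 36 h. Because the 10 were chosen with earlier results known, the shares of all genes are given for scale only. At 12 h, 7 of 10 were higher in NIP, where 2.96% of all genes tested were called higher, and 7 of 10 were higher in NIL, where 1.55% were. At 36 h, 8 of 10 were higher in NIP against 1.33% of all genes, and 4 of 10 were higher in NIL against 0.446%. The median log2 change of the 10 was 1.44 in NIP and 2.50 in NIL at 12 h, and 2.49 in NIP and 1.78 in NIL at 36 h, where the median over all genes tested lay between -0.03 and 0.03. Both CPA libraries stood above both untreated ones for 10 of 10 genes in NIP at 12 h (27.1% of all genes), 10 of 10 in NIL at 12 h (17.8%), 9 of 10 in NIP at 36 h (20.9%) and 9 of 10 in NIL at 36 h (21.0%). The exceptions were Slc38a2 in NIP at 36 h and Slc1a5 in NIL at 36 h. When replicate was fitted as a block, 9 of 10 were higher in NIP at 12 h (7.54% of all genes), 10 in NIL at 12 h (4.16%), 9 in NIP at 36 h (5.10%) and 6 in NIL at 36 h (7.25%). None was lower with the block, where 6.54% of all genes were lower in NIP and 3.77% in NIL at 12 h, and 5.15% in NIP and 11% in NIL at 36 h.

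**Figure D1:**
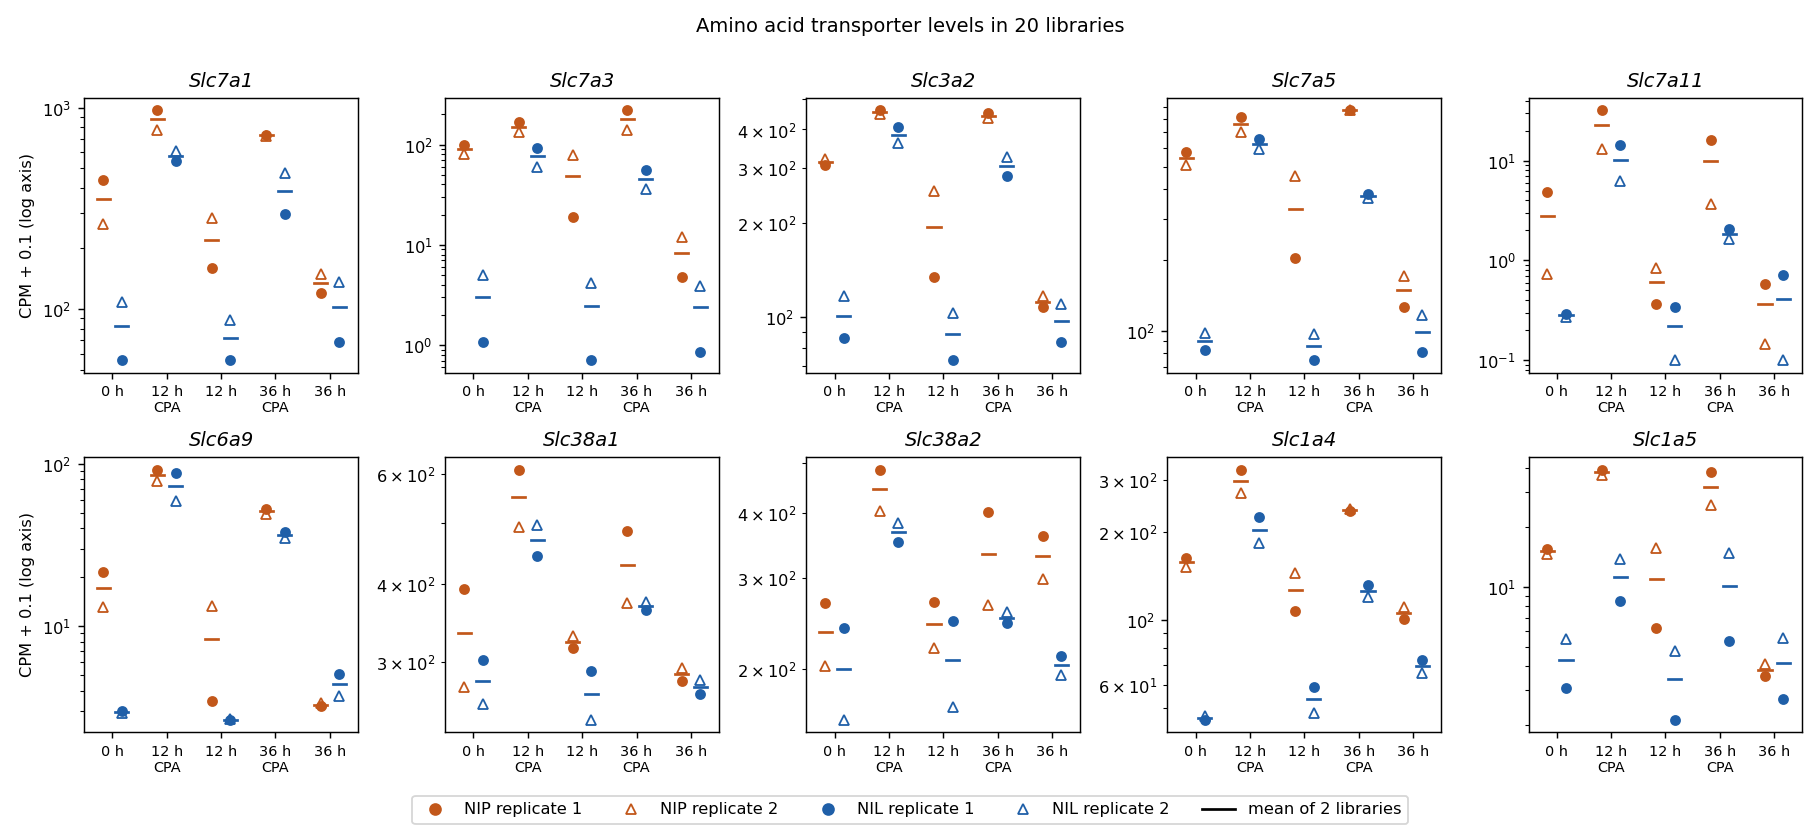
Level of each of the 10 transporter genes in each library, in CPM on a log axis, by line, time and treatment; each point is 1 library. Points of CPA-treated groups lie above those of the untreated group of the same line and time for 10 of 10 genes at 12 h and 9 of 10 at 36 h in each line.

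The plot of levels by library shows how the genes differ. Slc38a1 and Slc38a2 had the smallest fitted changes of the 10 in each of the 4 comparisons, between 0.01 and 0.86, and Slc6a9 had changes between 3.06 and 4.84. It also shows that untreated NIP libraries did not share a level: those of 0 h lie above those of 36 h for 9 of the 10 genes in their mean, and the 2 of 12 h lie apart from each other.

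Slc7a1 encodes CAT-1, the widely expressed importer of arginine and lysine (GRCm38 chr5:148327410-148399904, minus strand). It had 970.3 and 775 CPM in CPA-treated NIP libraries at 12 h, against 159 and 284 CPM in untreated ones. In NIL at 12 h it had 546 and 606 CPM with CPA, against 56.2 and 88.1 CPM without. The groups did not overlap, and Slc7a1 rose by 1.98 ± 0.43 in NIP (edgeR adjusted p = 0.0182) and 3.0 ± 0.45 in NIL (edgeR adjusted p = 0.00336). At 36 h the CPA libraries held 732 and 723 CPM in NIP, against 120.2 and 149 CPM untreated, a rise of 2.43 ± 0.43 (edgeR adjusted p = 0.0105). In NIL at 36 h it had 298 and 473 CPM with CPA, against 68.4 and 137 CPM, a difference of 1.91 ± 0.43 that missed the threshold (edgeR adjusted p = 0.0553) and passed it with the replicate block (0.00433).

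Slc7a3 encodes CAT-3, a cationic amino acid importer known mainly from neurons (chrX:101079210-101086020, minus strand). CPA-treated NIL libraries had 92.6 and 59.5 CPM at 12 h, against 0.611 and 4.06 CPM in untreated ones, near the bottom of its range. The rise was 5.31 ± 1.05 (edgeR adjusted p = 0.018). At 36 h it had 55.6 and 35.6 CPM in CPA-treated NIL libraries, against 0.760 and 3.79 CPM in untreated ones. The 36 h difference of 4.52 ± 1.02 missed the threshold (edgeR adjusted p = 0.0557) and passed it with the replicate block (0.0146). In NIP at 36 h Slc7a3 had 220.0 and 138 CPM with CPA, against 4.65 and 11.9 CPM without, and rose by 4.39 ± 0.95 (edgeR adjusted p = 0.0299). At 12 h in NIP the CPA libraries, at 166 and 133 CPM, also lay above the untreated ones, at 18.9 and 78.0 CPM. The untreated pair differed 4.13-fold, and the difference of 1.63 ± 0.83 was not called (edgeR adjusted p = 0.348).

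Slc3a2 encodes the CD98 heavy chain, a glycoprotein that brings light chains such as those of Slc7a5 and Slc7a11 to the cell surface (chr19:8706882-8723369, minus strand). It had 461 and 447 CPM in CPA-treated NIP libraries at 12 h, against 135 and 254 CPM untreated. In NIL at 12 h it had 408 and 361 CPM with CPA, against 72.8 and 103 CPM. The 36 h libraries with CPA had 450.4 and 434 CPM in NIP and 284 and 326 CPM in NIL, against 107 and 117 CPM in untreated NIP and 83.5 and 110.4 CPM in untreated NIL. Slc3a2 passed the test in all 4 comparisons, by 1.22 ± 0.27 in NIP and 2.13 ± 0.28 in NIL at 12 h, and by 1.98 ± 0.28 in NIP and 1.66 ± 0.27 in NIL at 36 h (edgeR adjusted p between 0.00128 and 0.0222).

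Slc7a5 encodes LAT1, the light chain that carries leucine and other large neutral amino acids (chr8:121881150-121907694, minus strand). CPA-treated NIP libraries had 816 and 699.7 CPM at 12 h and 869 and 869 CPM at 36 h, against 204 and 456 CPM at 12 h and 126 and 171 CPM at 36 h in untreated NIP. CPA-treated NIL libraries had 654 and 593 CPM at 12 h and 383 and 367 CPM at 36 h, against 74.8 and 96.5 CPM at 12 h and 80.8 and 117 CPM at 36 h in untreated NIL. No CPA library overlapped an untreated one of its line and time. Slc7a5 rose by 1.20 ± 0.31 in NIP (edgeR adjusted p = 0.0426) and 2.87 ± 0.33 in NIL (edgeR adjusted p = 0.000554) at 12 h. At 36 h it rose by 2.54 ± 0.32 in NIP (edgeR adjusted p = 0.00356) and 1.93 ± 0.31 in NIL (edgeR adjusted p = 0.0222).

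Slc7a11 encodes xCT, the light chain that imports cystine in exchange for glutamate (chr3:49892526-50443614, minus strand), whose promoter stretch is printed above. It was close to its detection limit in untreated cells. At 12 h it had 32.1 and 13.2 CPM in CPA-treated NIP libraries, from 669 and 314 counts, against 0.263 and 0.743 CPM in untreated ones, from 8 and 16 counts. In NIL at 12 h it had 14.1 and 6.16 CPM with CPA, against 0.238 and 0 CPM without; in the library at 0, a count of 0 allows up to 0.348 CPM. These were rises of 5.52 ± 1.18 in NIP (edgeR adjusted p = 0.0173) and 5.86 ± 1.32 in NIL (edgeR adjusted p = 0.0354). Both CPA libraries were above both untreated ones in each line. At 36 h CPA-treated NIP libraries had 16.2 and 3.57 CPM, against 0.477 and 0.0459 CPM untreated, a rise of 5.68 ± 1.36 (edgeR adjusted p = 0.0469). CPA-treated NIL libraries had 1.97 and 1.54 CPM, against 0.615 and 0 CPM untreated (up to 0.292 CPM for the 0), a difference of 2.17 ± 1.19 that was not called (edgeR adjusted p = 0.366). Fitted changes of a gene with so few untreated counts depend on the prior count edgeR adds, and with 1 library left out the NIL change at 12 h ran between 5.12 and 10.55.

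**Figure D2:**
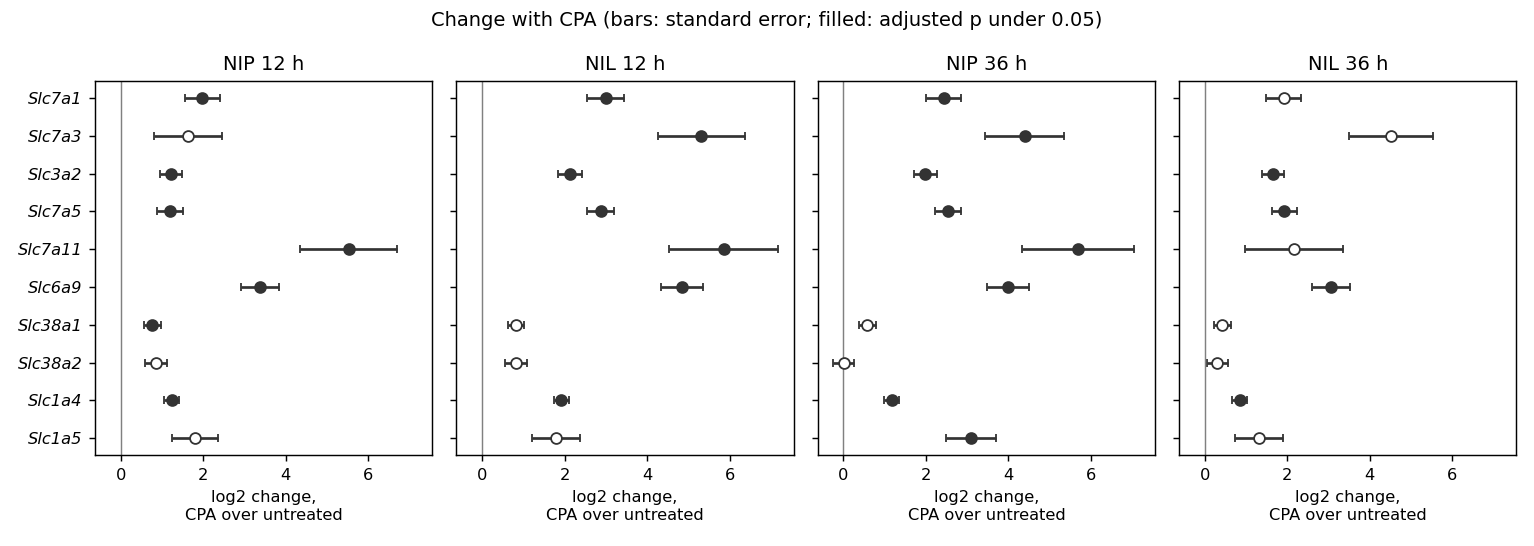
Log2 change with CPA over untreated for each transporter gene, in 4 panels by line and time; points are edgeR estimates, bars their SE, and filled points had an adjusted p under 0.05. Slc7a11, Slc7a3 and Slc6a9 lie farthest to the right in 3 of the 4 panels, and Slc38a1 and Slc38a2 lie nearest to 0.

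Slc6a9 encodes GlyT1, the sodium- and chloride-coupled glycine importer (chr4:117834506-117875198, plus strand). It had 91.7 and 77.8 CPM with CPA in NIP at 12 h, against 3.35 and 13.2 CPM untreated, and 87.1 and 59.0 CPM with CPA in NIL at 12 h, against 2.55 and 2.55 CPM. At 36 h it had 52.7 and 48.9 CPM with CPA in NIP, against 3.10 and 3.26 CPM, and 38.0 and 34.5 CPM with CPA in NIL, against 4.96 and 3.60 CPM. Over all 20 libraries the lowest value with CPA was above the highest without it. Slc6a9 rose by 3.37 ± 0.46 in NIP and 4.84 ± 0.51 in NIL at 12 h, and by 3.99 ± 0.50 in NIP and 3.06 ± 0.47 in NIL at 36 h (edgeR adjusted p between 0.000334 and 0.0159). In the GENCODE vM21 annotation its exons share 1429 bases, 27.8% of its exonic length, with Ccdc24 on the opposite strand, and the strand setting of the counting is not given in the sources used here. Ccdc24 changed by between -0.91 and -0.46 with CPA and was not called in any of the 4 comparisons.

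Slc38a1 and Slc38a2 encode SNAT1 and SNAT2, sodium-coupled importers of glutamine, alanine and other small neutral amino acids (system A), and lie next to each other on chromosome 15 (chr15:96571418-96642913 and chr15:96687392-96699730, both on the minus strand). Slc38a1 had 609 and 494 CPM with CPA in NIP at 12 h, against 316 and 330.0 CPM untreated, and rose by 0.77 ± 0.20 (edgeR adjusted p = 0.0443). In NIL at 12 h it had 443 and 497 CPM with CPA, against 290.1 and 243 CPM, and the difference of 0.82 ± 0.20 just missed the threshold (edgeR adjusted p = 0.053; 0.00769 with the replicate block). At 36 h it had 486 and 373 CPM with CPA in NIP, against 279.6 and 294 CPM, a difference of 0.58 ± 0.20 (edgeR adjusted p = 0.184; 0.0467 with the block). In NIL at 36 h it had 364 and 374 CPM with CPA, against 267 and 281 CPM, a difference of 0.43 ± 0.20 (edgeR adjusted p = 0.289).

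Slc38a2, a system A gene known to be raised by amino acid shortage, was not called in any of the 4 comparisons. At 12 h it had 485 and 403 CPM with CPA in NIP, against 269 and 219 CPM untreated, and 352 and 383 CPM with CPA in NIL, against 247 and 168 CPM. Those differences were 0.86 ± 0.26 in NIP (edgeR adjusted p = 0.0837; 0.004 with the block) and 0.82 ± 0.26 in NIL (edgeR adjusted p = 0.145; 0.0077 with the block). At 36 h in NIP it had 401 and 265 CPM with CPA, against 361 and 299 CPM, so the groups overlapped and the difference was 0.01 ± 0.26 (edgeR adjusted p = 0.988). At 36 h in NIL it had 245 and 257 CPM with CPA, against 211 and 195 CPM, a difference of 0.31 ± 0.26 (edgeR adjusted p = 0.555).

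Slc1a4 encodes ASCT1, an exchanger of serine, alanine and other small neutral amino acids (chr11:20302180-20332713, minus strand). It had the smallest SE of the 10 in each of the 4 comparisons and passed the test in all 4 comparisons. At 12 h it had 325 and 270.1 CPM with CPA in NIP, against 107 and 145 CPM untreated, and 224 and 182 CPM with CPA in NIL, against 59.0 and 48.0 CPM. At 36 h it had 235 and 239.7 CPM with CPA in NIP, against 101 and 111 CPM, and 131 and 119.7 CPM with CPA in NIL, against 72.8 and 66.1 CPM. The rises at 12 h were 1.24 ± 0.18 in NIP (edgeR adjusted p = 0.00195) and 1.92 ± 0.18 in NIL (edgeR adjusted p = 0.000134). At 36 h they were 1.17 ± 0.18 in NIP (edgeR adjusted p = 0.00453) and 0.85 ± 0.18 in NIL (edgeR adjusted p = 0.0464).

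Slc1a5 encodes ASCT2, an exchanger of glutamine and other neutral amino acids (chr7:16781340-16798274, plus strand). It rose in NIP at 36 h, by 3.09 ± 0.60 (edgeR adjusted p = 0.0177), with 37.9 and 25.9 CPM with CPA against 3.46 and 3.99 CPM untreated. The other differences were not called. At 12 h it had 38.9 and 36.5 CPM with CPA in NIP, against 6.08 and 15.6 CPM, a difference of 1.80 ± 0.55 (edgeR adjusted p = 0.0891; 0.00702 with the block). In NIL at 12 h it had 8.39 and 13.7 CPM with CPA, against 2.04 and 4.64 CPM, a difference of 1.79 ± 0.59 (edgeR adjusted p = 0.161; 0.0295 with the block). At 36 h in NIL the groups overlapped, with 5.20 and 14.8 CPM with CPA against 2.61 and 5.45 CPM, a difference of 1.32 ± 0.58 (edgeR adjusted p = 0.266).

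How many calls were made depended on single libraries, while all of the called changes stayed above 0 with any 1 library left out. Leaving out a library can change calls over all genes too, and their share is not given for each fit. Counts with a library left out, here and for the line differences below, are therefore no result about the 10 in particular. In NIP at 12 h, 2 of the 10 were called without untreated replicate 1, 2 without CPA replicate 1, 3 without CPA replicate 2 and 5 without untreated replicate 2. In NIL at 12 h the count was 4 without untreated replicate 1 and 5 or 6 without each of the others. In NIP at 36 h none was called without untreated replicate 1, where 1 gene was called in all, 2 without untreated replicate 2, 5 without CPA replicate 1 and 7 without CPA replicate 2. In NIL at 36 h none was called without either untreated library, where no gene at all was called, or without CPA replicate 2, where 8 genes were called in all, and 4 were called without CPA replicate 1. Slc6a9 and Slc1a4 passed at 12 h in both lines whichever library was left out, and Slc3a2 and Slc7a5 did so in NIL at 12 h. Leaving out both libraries with the highest Rn45s share left none of the 10 called at 36 h in either line.

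Markers of other cell types were measured beside these changes. Summed over 16 neuronal markers, the level was 9798 and 7777 CPM with CPA in NIP at 12 h, against 15660 and 11990 CPM untreated, and 9295 and 6668 CPM with CPA in NIL at 12 h, against 15090 and 10910 CPM. The 36 h sums were 10660 and 7544 CPM with CPA in NIP, against 14990 and 12050 CPM, and 8374 and 4218 CPM with CPA in NIL, against 14550 and 9686 CPM. EdgeR called none of the 16 at 12 h or at 36 h in NIP and 1, lower, at 36 h in NIL. With the replicate block 7 were lower in NIP (6.54% of all genes) and 7 in NIL (3.77%) at 12 h. At 36 h the block called 7 lower in NIP (5.15%) and 14 in NIL (11%). Summed over 15 endoderm and endothelium markers, the level was 513.8 and 9378 CPM with CPA in NIP at 36 h, against 788 and 4111 CPM, and 18030 and 36670 CPM with CPA in NIL at 36 h, against 6253 and 20750 CPM. None of the 15 was called with CPA in either line or time, with or without the block. Of 11 motor neuron markers edgeR called 1 lower in NIP and 2 lower in NIL at each time. With the block 1 of the 11 was lower in NIP and 4 in NIL at 12 h, and 3 in NIP and 6 in NIL at 36 h, and none was higher. Of 13 markers of neural progenitors and glia edgeR called 1 lower in NIP and 2 lower in NIL at 12 h and 1 lower in NIP at 36 h. Of 15 pluripotency markers 1 was lower in NIP at 12 h, and none of 24 proliferation genes or 9 mesenchyme markers was called by edgeR. The part of these other cells in the transporter levels was not tested.

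Before any treatment most of the 10 genes were higher in NIP than in NIL. At 0 h, 7 of 10 genes were higher in NIP, where 7.86% of all genes tested were called higher; at 12 h without CPA 6 of 10 were (7.68%), and at 36 h without CPA 1 of 10 was (7.0%). The median log2 difference of the 10, NIP over NIL, was 1.99 at 0 h, 1.56 at 12 h and 0.30 at 36 h. With the replicate block the counts were 8 (14.3%), 7 (14.5%) and 2 (14.1%). Both NIP libraries stood above both NIL libraries for 8 of the 10 at 0 h (26.7% of all genes), 9 at 12 h (27.9%) and 4 at 36 h (27.6%), and below them for 1 at 36 h (27.2%), which was Slc6a9. The 12 h and 36 h contrasts share their untreated libraries with the CPA comparisons above.

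At 0 h the leucine carrier gene Slc7a5 had 577 and 509 CPM in NIP, against 82.2 and 97.3 CPM in NIL, a difference of 2.60 ± 0.32 (edgeR adjusted p = 0.000138). Slc7a3 had 99.6 and 80.3 CPM in NIP, against 0.988 and 4.91 CPM in NIL, a difference of 5.07 ± 1.01 (edgeR adjusted p = 0.00441). Slc1a4 had 163 and 151 CPM in NIP, against 45.6 and 46.8 CPM in NIL, a difference of 1.77 ± 0.18 (edgeR adjusted p = 3.09e-05). In these 3 genes the lines did not overlap, nor did they in the other 4 called at 0 h. Slc7a1 had 438 and 264 CPM in NIP, against 55.8 and 109 CPM in NIL, and Slc3a2 had 307 and 321 CPM in NIP, against 85.6 and 117 CPM in NIL. Slc6a9 had 21.3 and 13.0 CPM in NIP, against 2.90 and 2.80 CPM in NIL, and Slc1a5 had 15.4 and 14.6 CPM in NIP, against 3.0 and 5.34 CPM in NIL. Their differences were 2.09 ± 0.43, 1.64 ± 0.27, 2.59 ± 0.47 and 1.88 ± 0.57 (edgeR adjusted p between 0.00126 and 0.0483). Slc7a11 was at 4.78 and 0.632 CPM in NIP, against 0.191 and 0.169 CPM in NIL, and its difference of 3.88 ± 1.28 passed only with the block (edgeR adjusted p = 0.067; 0.00543 with the block). Slc38a1 had 393 and 274 CPM in NIP, against 302 and 257 CPM in NIL, and Slc38a2 had 268 and 202 CPM in NIP, against 239 and 159 CPM in NIL. Their differences, 0.26 (95% interval -0.17 to 0.68) and 0.24 (-0.32 to 0.80), were not called.

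**Figure D3:**
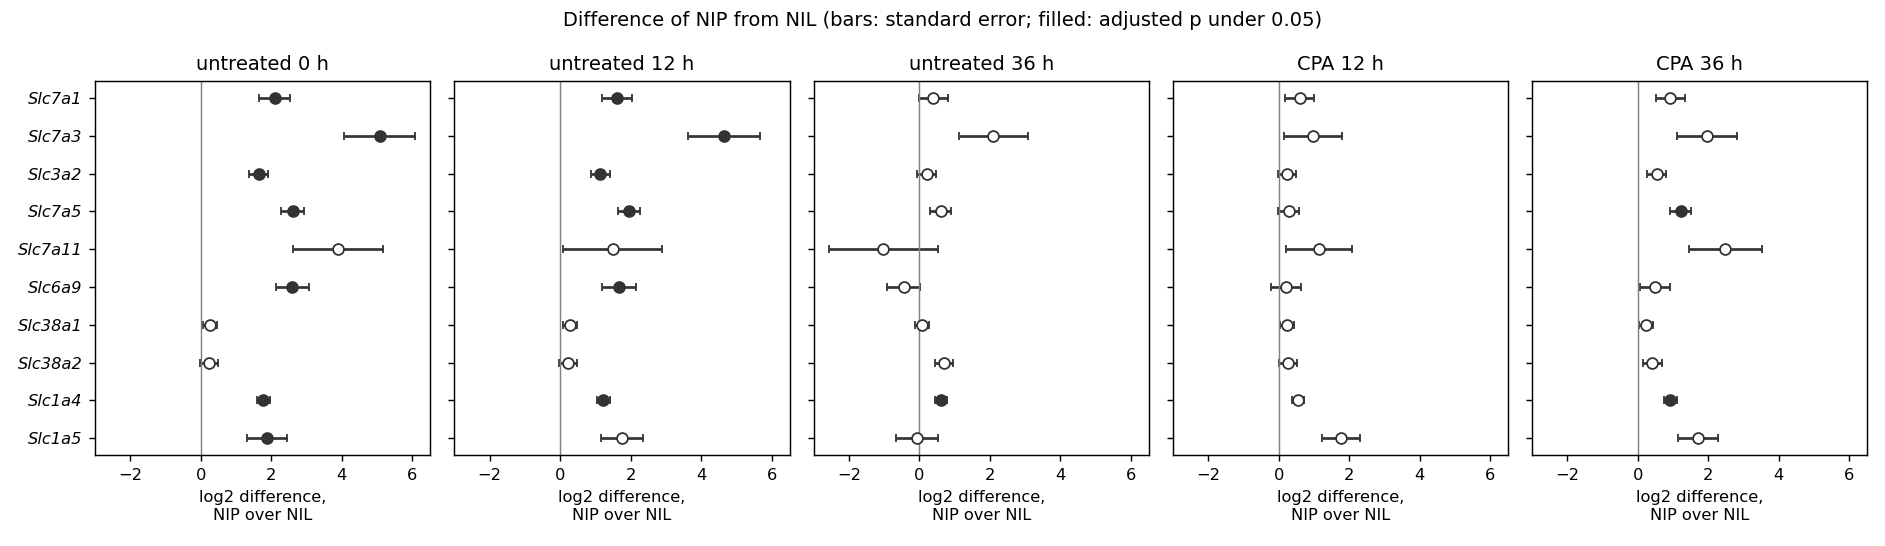
Log2 difference NIP over NIL for each transporter gene in untreated cells at 0, 12 and 36 h and in CPA-treated cells at 12 and 36 h; points are edgeR estimates, bars their SE, and filled points had an adjusted p under 0.05. Filled points number 7 at 0 h and 6 at 12 h without CPA, and 1, 0 and 2 in the other panels.

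In cells treated with CPA the median difference of the 10 was 0.42 at 12 h and 0.92 at 36 h, as the plot of line differences shows. At 12 h 0 of the 10 were called higher in NIP by edgeR (6.77% of all genes were), 2 had an unadjusted p under 0.05, DESeq2 called 2 (14% of its genes in either direction) and the replicate block 2, Slc1a4 and Slc1a5 (14.2%). Both NIP libraries were still above both NIL libraries for 7 of the 10 (33.3% of all genes). At 36 h with CPA 2 were called (10.4%), Slc7a5 by 1.21 ± 0.31 (edgeR adjusted p = 0.0165) and Slc1a4 by 0.92 ± 0.18 (edgeR adjusted p = 0.003), and the NIP libraries were above the NIL ones for 9 (27.2%). The block called 6 (19.3%), adding Slc7a1, Slc3a2, Slc7a11 and Slc1a5. The 1 gene called at 36 h without CPA was Slc1a4, by 0.61 ± 0.18 (edgeR adjusted p = 0.0392), and it was not called with any 1 of its 4 libraries left out. At 0 h the count was 4 without NIL replicate 1 and 5 to 7 without each of the others, and at 12 h without CPA it was 2 without NIL replicate 1 or NIP replicate 2, 4 without NIL replicate 2 and 7 without NIP replicate 1. At 36 h with CPA it was 1 without replicate 1 of either line.

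Markers of other cell types differed between the lines in both directions. The summed level of 24 proliferation genes was 177 and 339.5 CPM in NIP at 0 h, against 414 and 1268 CPM in NIL, and that of the 15 endoderm and endothelium markers was 1179 and 3652 CPM in NIP, against 3407 and 12060 CPM in NIL. The summed level of 16 pluripotency markers, 15 of them tested, was 218 and 299.8 CPM in NIP, against 319 and 533 CPM in NIL. That sum includes Lin28a, whose median over all libraries was 160 CPM in NIP and 139 CPM in NIL. The median log2 difference of the 15 tested, NIP over NIL at 0 h, was -3.1, with 1 of them above 0. The sum of 12 mesenchyme markers, 9 of them tested, was 21.4 and 47.8 CPM in NIP, against 67.8 and 183 CPM in NIL. That of 18 markers of neural progenitors and glia, 13 of them tested, was higher in NIP, at 1330 and 1394 CPM, against 801 and 1065 CPM in NIL. At 0 h edgeR called 4 of 9 mesenchyme markers lower in NIP, and 3 of 13 markers of neural progenitors and glia higher and 2 lower, where 4.61% of all genes were called lower. It called none of the proliferation, endoderm and endothelium or pluripotency genes, and with the replicate block (12.1% of all genes lower) 23 of 24 proliferation genes, 3 of 15 endoderm and endothelium markers and 9 of 15 pluripotency markers were lower. Their part in the transporter differences was not tested.

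Untreated NIP cells were also followed from 0 to 12 and 36 h. Slc7a5 had 577 and 509 CPM at 0 h, 204 and 456 CPM at 12 h and 126 and 171 CPM at 36 h. Slc7a3 had 99.6 and 80.3 CPM at 0 h, 18.9 and 78.0 CPM at 12 h and 4.65 and 11.9 CPM at 36 h. Slc3a2 had 307 and 321 CPM at 0 h, 135 and 254 CPM at 12 h and 107 and 117 CPM at 36 h. In these 3 genes each later group lay wholly below the earlier one. For the step from 0 to 12 h, 4 of the 10 had both libraries below both earlier ones (18.3% of all genes), and for the step from 12 to 36 h 7 did (21.6%), while 1, Slc38a2, had both above (20.1%). No step was called by edgeR, for these 10 or for any gene (0% of genes tested). From 0 to 12 h 4 of the 10 had an unadjusted p under 0.05 and DESeq2 called 0. From 12 to 36 h 5 had, DESeq2 called 1 (0.737% of its genes), and the block called 1 lower (0.426%), which was Slc7a5. In untreated NIL neither step had a call or an unadjusted p under 0.05 with edgeR for any of the 10, with 0 called by DESeq2, and the 95% interval of Slc7a5 ran between -0.73 and 0.59 from 0 to 12 h and between -0.45 and 0.86 from 12 to 36 h.

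The untreated NIP libraries of 12 h differed from each other in several of these genes. Replicate 2 was above replicate 1 by 4.13-fold for Slc7a3, 3.92-fold for Slc6a9, 2.83-fold for Slc7a11, 2.57-fold for Slc1a5 and 2.23-fold for Slc7a5. The ratio was 1.89 for Slc3a2, 1.78 for Slc7a1, 1.34 for Slc1a4, 1.04 for Slc38a1 and 0.814 for Slc38a2. Atf4 had 157 CPM in replicate 2 and 72.3 CPM in replicate 1, and the summed level of 30 ATF4 pathway genes was 2163 CPM in replicate 2 and 1339 CPM in replicate 1. Every CPA change in NIP at 12 h is measured against these 2 libraries: for Slc7a5 the change was 0.73 without replicate 1 and 1.89 without replicate 2, and for Slc6a9 all leave-one-out values were between 2.69 and 4.66.

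Whether the CPA response itself differed between lines or times was tested with interaction terms. EdgeR called none of the 10 in any of the 4 interactions, where 0%, 0%, 0.00676% and 0.0135% of all genes were called, and DESeq2 called 0 of the 10 in each. At 12 h the response of NIP minus that of NIL was -1.67 ± 0.43 for Slc7a5 (95% interval -2.60 to -0.73), -3.68 ± 1.29 for Slc7a3 (-6.45 to -0.91), -0.90 ± 0.38 for Slc3a2 (-1.71 to -0.09), -1.47 ± 0.63 for Slc6a9 (-2.83 to -0.11) and -0.68 ± 0.25 for Slc1a4 (-1.21 to -0.15). These 5 had an unadjusted p under 0.05 and an edgeR adjusted p of 1. All 5 use the untreated NIP libraries of 12 h, which differed from each other as given above. With 1 library left out they ran from -2.13 to -0.97 for Slc7a5 and from -5.31 to -2.31 for Slc7a3. The ranges were -1.29 to -0.37 for Slc3a2, -2.15 to -0.18 for Slc6a9 and -0.88 to -0.45 for Slc1a4. At 36 h the line interaction had an unadjusted p under 0.05 for 1 gene, Slc1a5, at 1.76 ± 0.81 (0.01 to 3.51). Between times, the response at 36 h minus that at 12 h was below 0 for all 10 genes in NIL, though above 0 for Slc7a3, Slc7a11 and Slc1a5 with some single libraries left out, with 3 at an unadjusted p under 0.05: Slc1a4 at -1.07 ± 0.25 (-1.61 to -0.54; edgeR adjusted p = 0.765), Slc6a9 at -1.78 ± 0.64 (-3.17 to -0.39) and Slc7a5 at -0.94 ± 0.43 (-1.87 to -0.01). In NIP 3 also had, with Slc7a5 at 1.35 ± 0.43 (0.42 to 2.27), Slc7a3 at 2.76 ± 1.19 (0.19 to 5.32) and Slc38a2 at -0.85 ± 0.37 (-1.64 to -0.06). The 2 interactions of the same line or time share libraries with each other.

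Dividing each gene's CPM by its exonic length in kilobases puts the genes on one scale. Summed over the 10, the level per kilobase was 681 and 586 CPM per kb with CPA in NIP at 12 h, against 190.0 and 327 CPM per kb untreated, and 506 and 464 CPM per kb with CPA in NIL, against 107 and 111 CPM per kb. At 36 h it was 637 and 585 CPM per kb with CPA in NIP, against 160.0 and 176 CPM per kb, and 315 and 333 CPM per kb with CPA in NIL, against 111 and 133 CPM per kb. At 0 h it was 410.0 and 356 CPM per kb in NIP and 109 and 117 CPM per kb in NIL. CPA-treated NIL libraries of 12 h thus lay above untreated NIP libraries of 0 h, and those of 36 h below them.

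**Figure D4:**
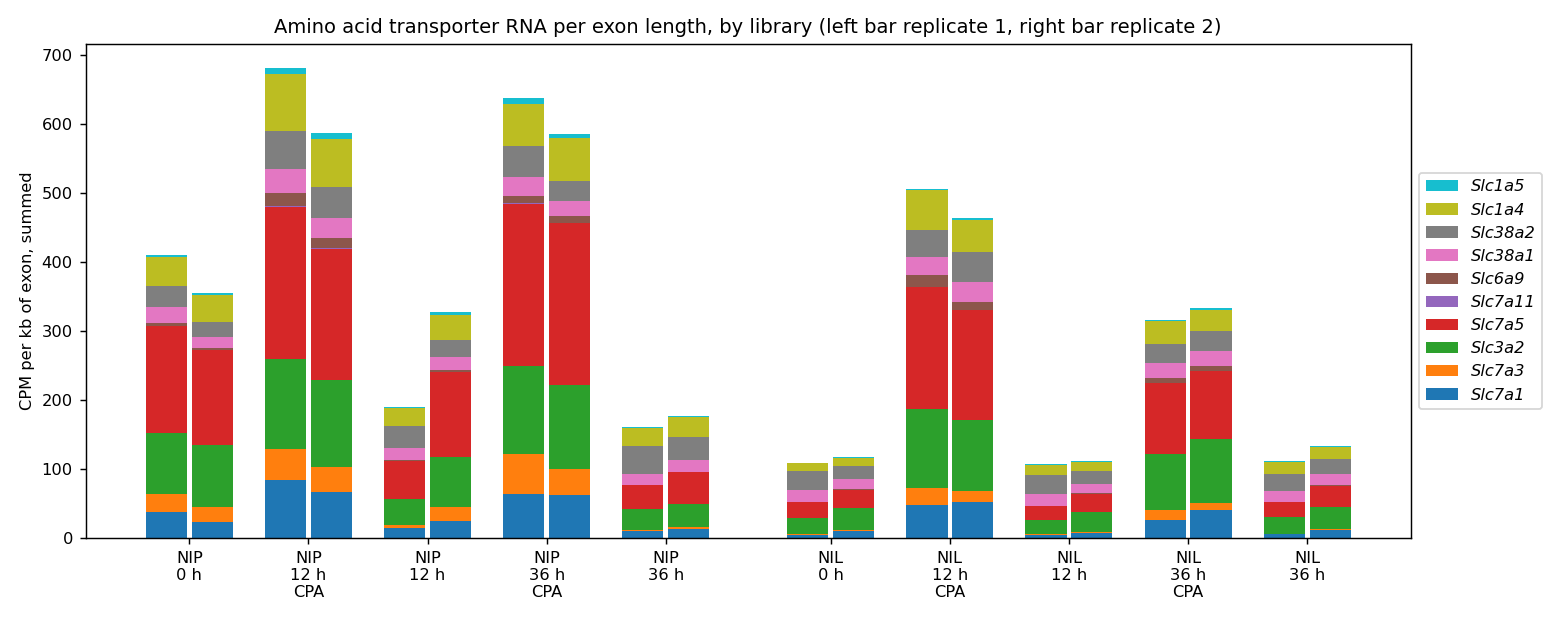
Level per kilobase of exon for the 10 transporter genes, stacked for each library, in CPM per kb; bars start at 0 and each is 1 library. The stack is 681 and 586 CPM per kb in CPA-treated NIP libraries at 12 h and 107 and 111 CPM per kb in untreated NIL libraries at 12 h.

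The make-up of the stack differed with CPA in NIP at 36 h and in NIL at 12 h and 36 h, and less so in NIP at 12 h. The 2 system A genes, Slc38a1 and Slc38a2, held 11.5% and 8.81% of the summed level with CPA in NIP at 36 h, against 35.6% and 28.9% untreated, and 12.9% and 15.5% with CPA in NIL at 12 h, against 42.0% and 29.8% untreated. Their own summed level per kilobase in those groups was 73.5 and 51.6 CPM per kb with CPA in NIP at 36 h, against 57.0 and 50.8 CPM per kb, and 65.5 and 72.1 CPM per kb with CPA in NIL at 12 h, against 44.8 and 33.1 CPM per kb. Slc7a5 held 36.8% and 40.1% with CPA in NIP at 36 h, against 21.2% and 26.2% untreated, and 34.8% and 34.4% with CPA in NIL at 12 h, against 18.9% and 23.5%. The ratio of Slc7a1 to Slc7a3 per kilobase, the 2 cationic carriers, was 1.93 and 3.34 with CPA in NIL at 12 h, against 30.2 and 7.12 untreated. The CD98 heavy chain gene Slc3a2 stood to its 2 light chains summed at 0.651 and 0.639 with CPA in NIL at 12 h, against 1.02 and 1.12 untreated. In NIL at 36 h the system A genes held 15.5% and 15.2% with CPA, against 35.4% and 28.9% untreated. Slc7a5 held 32.7% and 29.7% with CPA there, against 19.6% and 23.7%. Slc7a1 stood to Slc7a3 at 1.76 and 4.37, against 29.5 and 11.8, and Slc3a2 to these 2 light chains at 0.78 and 0.932, against 1.08 and 0.996. In NIP at 12 h the untreated libraries spanned the CPA ones in the Slc7a5 share and in both ratios. There the system A genes held 13.2% and 12.7% with CPA, against 25.6% and 13.4% untreated, and Slc7a5 held 32.3% and 32.2% with CPA, against 29.0% and 37.6% untreated. Slc7a1 stood to Slc7a3 at 1.92 and 1.91 with CPA, against 2.77 and 1.19 untreated, and Slc3a2 to these 2 light chains at 0.588 and 0.667 with CPA, against 0.692 and 0.585 untreated. Lengths are those of all annotated exons together, so a gene read mainly from a short transcript is placed too low.

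Of 45 other amino acid transporter genes listed, 31 were tested. In NIP 2 were higher at 12 h, where 2.96% of all genes tested were called higher. Slc38a7, a lysosomal glutamine carrier, was higher by 0.83 ± 0.20 (edgeR adjusted p = 0.0319). Slc3a1, the heavy chain of a cystine and cationic amino acid carrier, was higher by 2.17 ± 0.54 (edgeR adjusted p = 0.0374), from 17 and 37 counts with CPA against 11 and 3. At 36 h in NIP 1 was higher (1.33% of all genes), Slc38a7, by 0.89 ± 0.20 (edgeR adjusted p = 0.0389). In NIL edgeR called 0 of 31 at 12 h, where 1.55% of all genes were higher and 0.656% lower. There 5 had an unadjusted p under 0.05 and DESeq2 called 1 (5.12% of its genes in either direction). At 36 h in NIL edgeR called 0 of 31, where 0.446% of all genes were higher and 0.534% lower. There 8 had an unadjusted p under 0.05 and DESeq2 called 1 (5.88%). With the block 5 were higher and 1 lower in NIP at 12 h (7.54% and 6.54% of all genes), and 4 higher in NIP at 36 h (5.10%). In NIL the block called 2 higher at 12 h (4.16%), and 6 higher and 2 lower at 36 h (7.25% and 11%). Their median change was between 0.12 and 0.38 in the 4 comparisons.

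Among 37 tested genes of amino acid sensing for mTORC1, the growth kinase complex that reads amino acid supply, Sesn2, a leucine sensor that restrains it, was higher with CPA by 1.75 ± 0.32 in NIP and 1.56 ± 0.32 in NIL at 12 h and by 1.79 ± 0.33 in NIP at 36 h (edgeR adjusted p between 0.0084 and 0.0216). Gatsl2, also called Castor2, fell in all 4 comparisons, with log2 changes between -1.10 and -0.83 (edgeR adjusted p between 0.0223 and 0.0431). The other calls were Itfg2, a subunit of a complex that tethers their regulator to lysosomes, higher in NIP at 12 h by 0.68 ± 0.16, and Rragb, a Rag GTPase, lower in NIL at 36 h (-0.94 ± 0.21). With the block 4 were higher and 3 lower in NIP and 2 higher and 2 lower in NIL at 12 h, and 1 higher and 1 lower in NIP and 4 higher and 2 lower in NIL at 36 h. In all genes the shares with the block were 7.54% higher and 6.54% lower in NIP and 4.16% higher and 3.77% lower in NIL at 12 h, and 5.10% higher and 5.15% lower in NIP and 7.25% higher and 11% lower in NIL at 36 h. Of 29 tested genes of the ATF4 pathway, none of them among the 10 transporters, 16 were higher in NIP and 18 in NIL at 12 h, and 17 in NIP and 12 in NIL at 36 h, and none was lower. With the block 19 were higher and 1 lower in NIP and 22 higher in NIL at 12 h, and 22 higher and 2 lower in NIP and 21 higher and 1 lower in NIL at 36 h. Their median change, 1.48 in NIP and 2.40 in NIL at 12 h and 2.35 in NIP and 1.79 in NIL at 36 h, stood beside 1.44, 2.50, 2.49 and 1.78 for the transporters. The list was chosen with results of these libraries known and is no independent evidence of its direction. Sesn2 is on both lists.

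The genes with the pattern most like each transporter were taken by Pearson correlation of log2 CPM over the 10 group means, among 10852 genes with a mean of at least 5 CPM. The means share library preparation and depth, so the values are a description. For Slc3a2 the highest were Mthfd2, a mitochondrial folate enzyme, at 0.994, Chac1, a glutathione-degrading enzyme, at 0.988, and Pycr1, a proline synthesis enzyme, at 0.985. Slc7a5 had Mthfd2 at 0.986, Pck2, the mitochondrial phosphoenolpyruvate carboxykinase, at 0.986 and Pycr1 at 0.982, and Slc7a1 had Sec24c, a vesicle coat subunit, at 0.984, Chac1 at 0.981 and Pck2 at 0.981. For Slc7a3 they were Pck2 at 0.985, Bcat1, a branched-chain aminotransferase, at 0.982 and Pycr1 at 0.978, for Slc6a9 Atf4 at 0.989, Hax1 at 0.988 and Cyb5r1 at 0.988, and for Slc7a11 Ppp1r16b at 0.996, Hax1 at 0.995 and Aldh1l2 at 0.993. Slc38a1 had other neighbours: Clptm1l at 0.991, Dnajc10, an ER disulfide reductase, at 0.988 and Derl2, an ER degradation factor, at 0.985. Slc38a2 had the lowest values, Ccdc149 at 0.954, Slc39a9 at 0.951 and Saraf at 0.944. Slc1a4 had Cntnap3 at 0.986, Slc39a11 at 0.985 and Cacng3 at 0.981, and Slc1a5 had Iah1 at 0.976, Galnt3 at 0.973 and Cth, which makes cysteine, at 0.971.

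The libraries numbered 2 also differed from those numbered 1 in the fit with the replicate as a term, in which 24.7% of all genes were higher and 24.4% lower in the second set. Among the 10, Slc7a11 was lower in set 2 by -1.39 ± 0.34 (edgeR adjusted p = 0.00431; higher in set 2 in 1 of 10 groups) and Slc38a2 by -0.29 ± 0.08 (edgeR adjusted p = 0.0072). Slc1a5 was higher in set 2 by 0.56 ± 0.20 (edgeR adjusted p = 0.0329) and Slc3a2 by 0.24 ± 0.09 (edgeR adjusted p = 0.0468). In the same fit 13 of 15 pluripotency markers, 24 of 24 proliferation genes and 13 of 15 endoderm and endothelium markers were higher in set 2, and 15 of 16 neuronal markers were lower.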

How the data were processed

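Total RNA depleted of ribosomal RNA was sequenced from 20 libraries, per the labels. The deposited files hold raw read counts for 24421 gene symbols; their 5 summary lines were left out. Per the submitters' processing notes, Picard, HTSeq 0.6.1p1, Bowtie2 2.3.2, TopHat2 2.1.1 and the GRCm38 (mm10) build were used. The strand setting and annotation are not given in the sources used here. Groups and times came from the titles.

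Genes were kept by edgeR's filterByExpr by group (14792), libraries were scaled by TMM, and a robust edgeR 4.0.16 quasi-likelihood model (R 4.3.3) fitted each group's mean, with 10 residual degrees of freedom, for 17 comparisons; p-values were adjusted by Benjamini and Hochberg within each, with a threshold of 0.05. The script was tested on simulated data. SE is the log2 difference divided by the square root of F. The biological coefficient of variation was 27.5%. CPM uses the scaled library sizes; a count of 0 was given the limit of 3 counts in that library, which covers counting error only. The 2 libraries of each group differed beyond sampling noise. Alternatives were DESeq2 1.42.0, median-of-ratios scaling, no or a stricter filter (5 CPM in 2 libraries), the comparison's groups alone, Rn45s removed, libraries left out, and the replicate number as a block.

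The replicate number comes from the titles. Deviations from the group means of same-numbered libraries correlated between 0.24 and 0.76 (median 0.47) in all 45 pairs of groups. The fit with the block therefore took the numbers to pair the libraries. The main fit, which gave the edgeR calls and p-values not marked as from the block, left this pairing out. The biological coefficient of variation was 27.5% in the main fit and 15.7% under the block.

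All 10 transporters are named. Other genes named are up to 4 further transporters and up to 3 each of the sensing and ATF4 lists with the smallest p in a CPA comparison, checks of treatment and line, the 3 genes most correlated with each member, and Ccdc24, added because it overlaps Slc6a9. The members and lists were chosen with earlier results of these data known. Lengths and overlaps are from GENCODE vM21, promoters from RefSeq; protein sequences were not used here.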

Additional observations from a re-analysis of the deposited data

How the results depend on the processing

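The counts of transporters called depended on the spread allowed for, and the cause was not tested. Shares of all genes called are not given for each setting, so these counts are no result about the transporters in particular. With a single library left out, in which case the lone library is assumed to vary like the other groups, the count with CPA ran from 2 to 5 in NIP and from 4 to 6 in NIL at 12 h, and from 0 to 7 in NIP and from 0 to 4 in NIL at 36 h. For NIP against NIL it ran from 4 to 7 at 0 h, from 2 to 7 at 12 h and 0 throughout at 36 h without CPA, and from 1 to 2 at 36 h with CPA. Fitting only the groups compared gave 1 in NIP and 0 in NIL with CPA at 36 h, 1 at 12 h and 0 at 36 h between untreated lines, and 1 at 12 h and 0 at 36 h between CPA-treated lines. Without the 2 libraries high in Rn45s it was 0 in each CPA and line comparison at 36 h. Between untreated lines at 36 h it was also 0 with no filter and with Rn45s removed, and 2 with the replicate block. Between CPA-treated lines the block gave 2 at 12 h and 6 at 36 h, and DESeq2 gave 2 at 12 h. From 12 to 36 h in untreated NIP the block and DESeq2 each gave 1. In the other comparisons these settings and the stricter filter kept the count within 1.5 times, and the block changed no interaction call. Slc38a2 with CPA in NIP at 36 h changed sign, to -0.02 with median-of-ratios scaling, 0 with the block, -0.02 with DESeq2, and with single libraries left out it ran from -0.34 to 0.28, at -0.14 without untreated replicate 2 and -0.34 without CPA replicate 1. At 0 h, NIP over NIL ran from -0.07 to 0.47 for Slc38a1 and from -0.09 to 0.57 for Slc38a2 with single libraries left out, at -0.07 and -0.02 without NIP replicate 1. Of 71 transporter differences followed singly, those with CPA, those at 0 h, those called and the interactions with an unadjusted p under 0.05, the other 68 kept their sign under each setting run. Over all 170 differences tested, 42 changed sign in at least 1 setting. Calls among the 71 were lost 78 times with 1 library left out and 23 times with only the groups compared. With 2 libraries a group and as few as 7996454 reads, differences of low genes such as Slc7a11 and Slc1a5 are the least certain.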
